A study of Mus musculus with 64 samples.

Results

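The 10 transcripts described here belong to the interferon-inducible GTPases. They are Irgm1, Irgm2 and Igtp of the IRGM subgroup, Iigp1 and Tgtp1 of the effector IRG proteins, and Gbp2, Gbp3, Gbp5, Gbp6 and Gbp7 of the guanylate-binding proteins (GBP). They were chosen by name from these 2 families, with no threshold on any measured value, and are 10 of 55487 genes in the count files. All 10 were among the 14537 genes that had enough counts to be tested.

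The data are RNA-seq counts of bone marrow-derived macrophages (BMMs), grown from marrow of 4 mice per genotype, 8 to 12 weeks old, in medium with L929 cell supernatant. The Ahr+/+ group came from wild-type females of the C57BL/6JRj strain and was compared with C57BL/6 Ahr-/- mice, a germline knockout of the aryl hydrocarbon receptor (AhR) crossed back in-house to C57BL/6JRj, so that AhR was missing in every cell type from which the BMMs came. BMMs were exposed for 6 h to benzo(a)pyrene (BaP, 1 µM), a polycyclic aromatic hydrocarbon of smoke and soot, to indole-3-carbinol (I3C, 10 µM), a compound of cruciferous vegetables, or the vehicle DMSO (0.01%), and were then activated for 3 h or 20 h with heat-killed bacteria of the Salmonella enterica serovar Enteritidis (hk S.E., 10000000 per ml). The unactivated groups received DMSO and no bacteria, and no group received a ligand without hk S.E. This gives 16 groups of 4 libraries, 8 groups in each genotype.

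IRG and GBP proteins are GTPases that assemble on the membranes around intracellular pathogens or on the bacteria themselves and help to disrupt them. IRGM proteins sit on host membranes and keep the effector IRG proteins inactive there, while GBP proteins bind bacterial lipopolysaccharide and promote the inflammasome that senses it. Their genes are classical targets of interferon signaling: the response to interferon-γ is tied to the GAS motif, and that to type I interferon, which macrophages release after contact with bacteria, to the ISRE motif.

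The genes lie in few genomic clusters (GRCm38, GENCODE M21). Gbp5, Gbp7, Gbp3 and Gbp2 follow each other on the plus strand of chromosome 3 between 142493978 and 142638008. Irgm1 (chr11:48861968-48871683) and Tgtp1 (chr11:48985327-48994172) lie on the minus strand of chromosome 11. Igtp (chr11:58199556-58207591) and Irgm2 (chr11:58199618-58222782) overlap on the plus strand of the same chromosome, and Gbp6 is on the minus strand of chromosome 5 (105270702 to 105293698). Reads can be hard to assign within these families, since 77.2% of the 75-base stretches of Tgtp1 exons also occur in other genes (74.6% in Tgtp2) and 67.3% of those of Gbp6 (61.7% in Gm43302). The counts of Tgtp1 and Gbp6 are therefore uncertain and may be too low, since the counting leaves out reads without a unique place or gene. This share was 11.3% for Gbp7, 7.8% for Igtp and at most 4.78% for the other 6.

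RefSeq promoter sequences (GRCm38.p6) of 300 bases, from 250 before to 50 after the start site, were at hand for 8 of the 10 genes, and 6 of these are shown because they show the different layouts of the interferon motifs in the family. Capitals mark every match on either strand to GAS (TTCNNNGAA), ISRE (GAAANNGAAA) or the AhR response element AHRE I (GCGTG), the element bound by the receptor that BaP and I3C activate. Igtp (chr11:58199306-58199605, plus strand), Irgm2 (chr11:58214727-58215026, plus strand), Tgtp1 (chr11:48992197-48992496, minus strand), Irgm1 (chr11:48871371-48871670, minus strand), Gbp2 (chr3:142620413-142620712, plus strand) and Gbp5 (chr3:142496684-142496983, plus strand) read, 5′ to 3′:
Igtp: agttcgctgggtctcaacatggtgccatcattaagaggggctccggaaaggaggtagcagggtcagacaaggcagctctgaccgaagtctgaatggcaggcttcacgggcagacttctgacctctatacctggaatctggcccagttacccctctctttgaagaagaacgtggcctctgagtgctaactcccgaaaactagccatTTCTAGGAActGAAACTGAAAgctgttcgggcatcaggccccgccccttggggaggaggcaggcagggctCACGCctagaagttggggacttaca
Irgm2: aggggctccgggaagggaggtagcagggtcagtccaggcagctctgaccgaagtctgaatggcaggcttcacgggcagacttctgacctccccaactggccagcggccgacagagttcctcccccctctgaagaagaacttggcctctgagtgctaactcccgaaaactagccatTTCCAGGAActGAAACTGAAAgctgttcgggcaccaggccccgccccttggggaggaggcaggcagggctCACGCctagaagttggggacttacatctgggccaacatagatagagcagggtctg
Tgtp1: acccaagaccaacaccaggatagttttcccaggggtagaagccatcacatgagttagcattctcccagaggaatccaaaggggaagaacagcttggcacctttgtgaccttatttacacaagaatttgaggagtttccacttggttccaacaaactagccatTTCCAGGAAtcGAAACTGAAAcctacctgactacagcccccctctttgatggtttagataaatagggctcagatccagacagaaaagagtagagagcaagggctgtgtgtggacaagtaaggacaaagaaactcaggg
Irgm1: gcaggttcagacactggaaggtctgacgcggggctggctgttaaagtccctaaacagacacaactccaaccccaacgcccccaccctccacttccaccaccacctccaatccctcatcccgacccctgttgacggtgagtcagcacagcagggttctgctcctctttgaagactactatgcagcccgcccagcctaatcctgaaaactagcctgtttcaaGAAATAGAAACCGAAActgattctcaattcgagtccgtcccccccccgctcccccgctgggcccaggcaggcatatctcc
Gbp2: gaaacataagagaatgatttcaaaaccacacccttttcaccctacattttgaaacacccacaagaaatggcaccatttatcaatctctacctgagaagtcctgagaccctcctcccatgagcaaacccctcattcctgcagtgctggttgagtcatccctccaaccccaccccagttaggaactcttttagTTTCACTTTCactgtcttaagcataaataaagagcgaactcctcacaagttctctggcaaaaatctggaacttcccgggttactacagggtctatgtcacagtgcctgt
Gbp5: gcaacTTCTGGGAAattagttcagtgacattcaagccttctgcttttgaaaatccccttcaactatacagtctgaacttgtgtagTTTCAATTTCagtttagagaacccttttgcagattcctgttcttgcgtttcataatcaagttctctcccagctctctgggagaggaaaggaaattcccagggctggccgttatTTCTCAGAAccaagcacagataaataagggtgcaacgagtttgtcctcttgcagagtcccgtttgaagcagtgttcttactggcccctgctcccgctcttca

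An ISRE was found in 8 of 8 members, against 3.44% of the 32851 RefSeq promoters of this length that were counted. Promoters on chromosome 18, where Iigp1 lies, were left out of this count. GAS was found in 5 of 8, against 8.3% of the counted promoters, and AHRE I in 2 of 8, Igtp and Irgm2, against 32.4%. In Igtp, Irgm2 and Tgtp1 a GAS match starts 11 bases before an ISRE match, at -45 and -34, at -75 and -64, and at -88 and -77 from the start site. In the printed Igtp and Irgm2 promoters these 2 motifs are followed by an AHRE I match on the opposite strand, at 25 and -5. Irgm1 and Gbp3 hold 2 overlapping ISRE matches and no GAS, Gbp2 holds a single ISRE at -59, and Gbp5 and Gbp7 hold 2 GAS matches and an ISRE. Gbp3 has 2 start sites in the table, and the second window holds no match. A match is a run of letters and no evidence of binding.

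**Figure D1:**
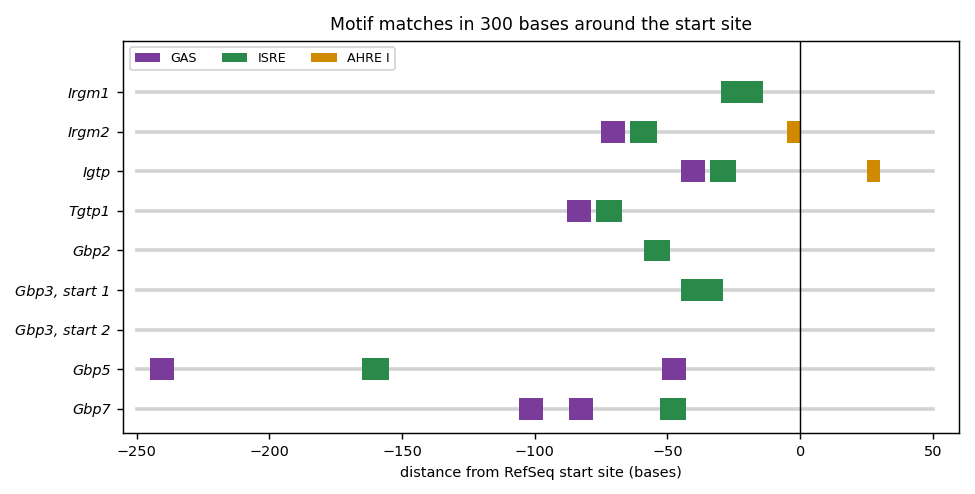
Position of GAS, ISRE and AHRE I matches (coloured blocks, in bases from the RefSeq start site at 0) in the 300 bases around the start of each member with a promoter sequence, 1 row per start site. ISRE is in 8 of 8 members, GAS in 5 and AHRE I in 2.

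Gene counts per library ranged from 12152496 to 233047331 (median 24499165), and all libraries except 1 held at most 50644601. Levels are given as CPM, the usual depth-scaled read count, with library totals adjusted by the TMM method. Macrophage markers summed to 17300 to 32700 CPM per library, T cell markers to 0.529 to 9.55, NK cell markers to 0 to 12.8 and neutrophil markers to 10.2 to 245 CPM, and hemoglobin transcripts were at 0 counts in all libraries. As a check of the labels, Ahrr, a target gene of AhR, was higher with BaP than with DMSO in Ahr+/+ BMMs by 3.36 at 3 h and 1.73 at 20 h on the log2 scale (adjusted p = 7.13e-14 and 4.22e-09). It differed by -0.33 and 0.31 in Ahr-/- BMMs without passing the test. Ahr transcripts themselves were counted in both genotypes (median 7.25 CPM in Ahr+/+ and 12.9 CPM in Ahr-/- libraries), so the Ahr count does not show the deletion.

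Before activation the 3 IRGM genes were the most expressed of the 10 and Tgtp1 the least. In unactivated Ahr+/+ BMMs at 3 h, Irgm1 stood at 75.1 ± 12.1 CPM (SD, n = 4), Irgm2 at 38.0 ± 5.81 and Igtp at 24.1 ± 1.57, while Gbp2 stood at 11.7 ± 2.45 and Gbp6 at 0.500 ± 0.330 CPM. Tgtp1 had 3 counts in the 4 libraries together (0.0303 CPM). Per kilobase, with all exons of a gene as the length, the level was 12.9 CPM for Irgm1, 11.9 for Igtp and 10.3 for Irgm2. Then came 4.64 for Gbp2, 1.37 for Gbp3, 0.693 for Gbp7, 0.300 for Gbp5, 0.104 for Iigp1, 0.0839 for Gbp6 and 0.00946 for Tgtp1. With the longest transcript as the length, Irgm1 stood apart at 19.6 CPM, with Igtp at 11.9 and Irgm2 at 10.8 CPM. Iigp1 and Gbp6 varied by 61.6% and 65.9% of their means between the 4 libraries (coefficient of variation), so their order is not resolved.

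After 3 h of hk S.E. the order was different. Per kilobase, Gbp2 led in Ahr+/+ BMMs with 862 CPM, followed by Igtp with 452, Gbp5 with 392, Irgm1 with 298, Irgm2 with 211 and Gbp3 with 207 CPM. With the longest transcript as the length, Gbp5 (693 CPM) came before Igtp (452 CPM), and Gbp3 (252 CPM) before Irgm2 (220 CPM). Gbp2 was first in every activated group of both genotypes, except that with the longest transcript as the length Gbp5 came first in 1 group, Ahr-/- BMMs with BaP at 3 h. Tgtp1 was last in 16 of 16 groups with either length, although its counts may be too low because of reads it shares with Tgtp2.

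All 10 genes rose with hk S.E. in each of 4 comparisons, Ahr+/+ and Ahr-/- BMMs at 3 h and 20 h, a comparison that asks for the effect of activation without AhR ligand. At 3 h in Ahr+/+ BMMs the increase ran from 20.4-fold for Irgm2 to 1310-fold for Gbp5. Genes passing the test (edgeR, adjusted p below 0.01, either direction) were 56.6% of all genes in Ahr+/+ BMMs at 3 h and 58.6% at 20 h, and 57.3% and 54.3% in Ahr-/- BMMs, of which 24.2%, 29.9%, 25.5% and 28.3% of all genes were higher. The median log2 fold change of the 10 members was 7.22 and 5.17 in Ahr+/+ and 6.5 and 3.86 in Ahr-/- BMMs at 3 h and 20 h, where the median of all genes was between -0.1 and 0.02. In none of the 4 comparisons did the activated and unactivated libraries of a member overlap, as was the case for 62.8%, 65.9%, 55.2% and 51.6% of all genes. Markers of other cells moved with activation as well. In Ahr+/+ BMMs at 3 h the 7 neutrophil markers, 4 of which could be tested, summed to 14.6 to 37.3 CPM without and 104 to 238 CPM with hk S.E., and the 5 NK cell markers, of which only Klrk1 could be tested, to 0 to 0.19 and 8.58 to 12.8 CPM, while the 7 macrophage markers summed to 25900 to 28400 and 28800 to 31500 CPM. T cell markers summed to 0.73 to 1.99 CPM without and 4.36 to 9.5 CPM with hk S.E., and dendritic cell markers to 0.0474 to 0.345 and 0.562 to 1.03 CPM. The B cell markers went the other way, with 2.78 to 3.06 and 1.04 to 2.11 CPM, and fibroblast markers overlapped (0.151 to 0.444 and 0.0703 to 0.415 CPM). The part of these marker changes in the increase was not tested.

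Of the IRGM genes, Irgm1, needed for resistance to several intracellular bacteria, is given in full. In Ahr+/+ BMMs at 3 h, its unactivated libraries held 73.9, 89.1, 59.7 and 77.6 CPM and its activated libraries 1688.3, 1979.1, 1515.2 and 1748.5 CPM. The lowest activated library was thus far above the highest unactivated one. The difference was 4.53 ± 0.194 on the log2 scale (SE, adjusted p = 7.81e-28), or 23.1-fold. At 20 h the unactivated libraries held 44.7, 55.8, 41.9 and 52.8 CPM and the activated ones 262, 273, 244 and 273 CPM, a 5.39-fold increase with little spread. In Ahr-/- BMMs the values were 56.1, 57.3, 111 and 108 CPM before and 1303.1, 1115.3, 1523.3 and 1556.4 CPM after 3 h of activation, and 44.2, 40.1, 59.8 and 63.9 against 183, 173, 242 and 244 CPM at 20 h. In each of these Ahr-/- groups replicates 1 and 2 lay below replicates 3 and 4. Irgm2 and Igtp rose by 4.35 ± 0.181 and 5.24 ± 0.185 at 3 h and by 2.05 ± 0.165 and 2.70 ± 0.165 at 20 h in Ahr+/+ BMMs (log2, SE).

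Among the effector IRG genes, Iigp1, whose product attacks pathogen vacuoles and which lies on the plus strand of chromosome 18 (60376027 to 60392634), started from near 0. Its unactivated Ahr+/+ libraries at 3 h held 0.487, 1.15, 0.345 and 0.427 CPM and its activated ones 303, 439, 188 and 388 CPM. That is 546-fold, with a log2 fold change of 8.92 ± 0.765 (adjusted p = 2.57e-15) and a wider spread than that of the IRGM genes. At 20 h the unactivated libraries held 0.488, 1.04, 0.390 and 0.691 CPM and the activated ones 26.5, 27.7, 16.2 and 28.4 CPM. In Ahr-/- BMMs the activated libraries held 138, 94.5, 275 and 312 CPM at 3 h and 3.64, 2.89, 16.9 and 14.9 CPM at 20 h, against 0.602, 0.301, 1.70 and 2.17 CPM and 0.278, 1.55, 0.852 and 1.73 CPM without hk S.E. In the activated Ahr-/- groups replicates 1 and 2 again lay below replicates 3 and 4, and at 20 h replicates 1 and 2 stayed below 4 CPM. For Tgtp1, 1996 counts in the activated and 3 in the unactivated Ahr+/+ libraries at 3 h gave a ratio of 1100 after scaling for depth, with a 95% interval from 374 to 5310 that covers counting error only. At 20 h this ratio was 33.1 (23.0 to 49.1), with 31 of the 32 unactivated counts in the deepest library, and in Ahr-/- BMMs it was 1090 (301 to 8990, from 2 unactivated counts) at 3 h and 15.4 (7.55 to 36.4) at 20 h.

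Gbp2 is given in full for the GBP genes. In Ahr+/+ BMMs at 3 h it went from 11.4, 13.9, 8.33 and 13.1 CPM to 2081.6, 2623.2, 1786.7 and 2183.4 CPM, which is 186-fold (log2 fold change 7.53 ± 0.331, adjusted p = 2.34e-27). At 20 h the unactivated libraries held 8.13, 10.8, 6.53 and 9.83 CPM and the activated ones 894, 801, 667 and 1037.8 CPM. Each activated library at 20 h was thus still far above all unactivated ones, and above every 20 h library of the IRG genes. In Ahr-/- BMMs the libraries went from 7.98, 8.84, 18.0 and 18.5 CPM to 1675.1, 1396.1, 1748.7 and 1767.8 CPM at 3 h, and from 6.49, 10.1, 8.92 and 9.0 CPM to 333, 247, 601 and 580 CPM at 20 h. Gbp5, whose product promotes the NLRP3 inflammasome, went from 1.99 to 2601.2 CPM at 3 h (log2 fold change 10.35 ± 0.336), the highest fold of means among the 10, although it lies within the interval of Tgtp1. Gbp3, Gbp6 and Gbp7 rose by 7.21, 7.22 and 5.78 at 3 h and by 5.37, 7.82 and 3.88 at 20 h in Ahr+/+ BMMs.

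**Figure D2:**
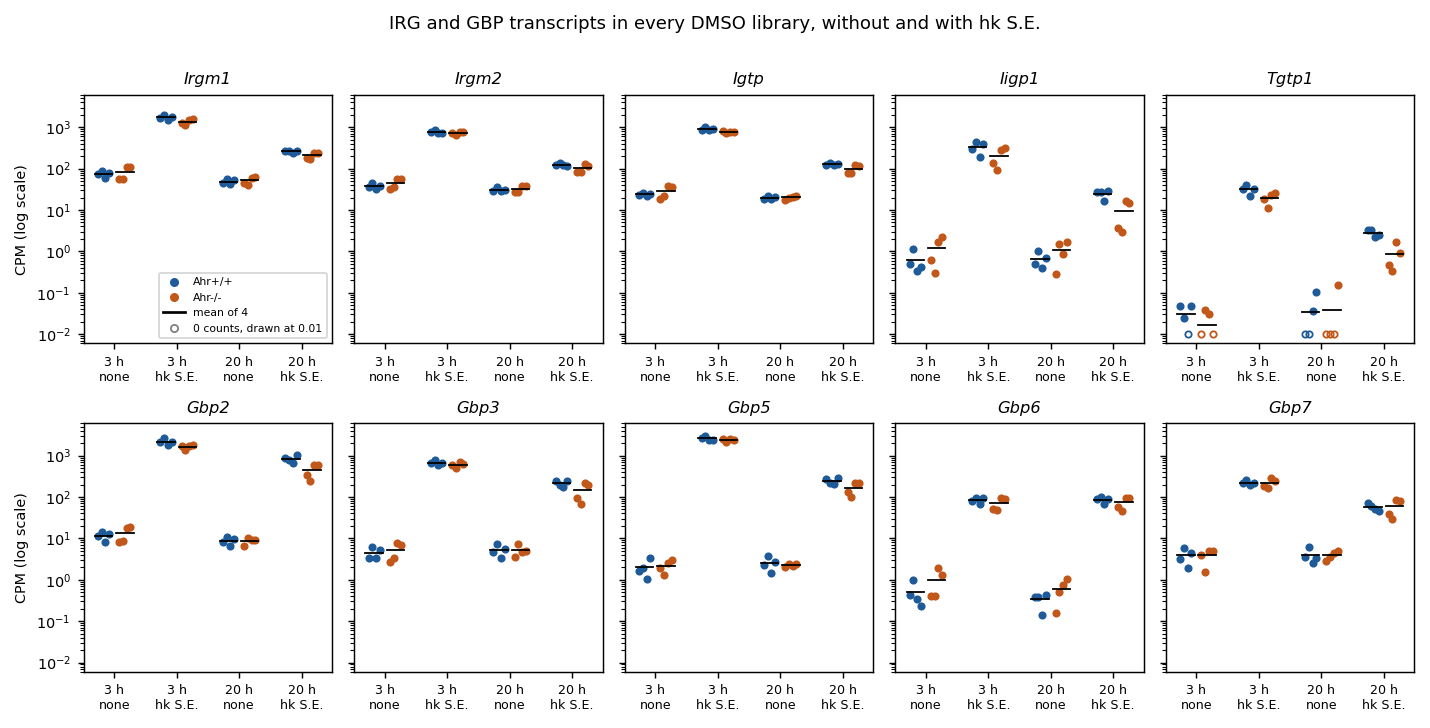
CPM (log scale) of the 10 members in each DMSO library, unactivated (none) or with hk S.E., at 3 h and 20 h, Ahr+/+ in blue and Ahr-/- in orange, with black bars for means of 4 libraries and open symbols for 0 counts drawn at 0.01. Every activated library lies above every unactivated one of its genotype and time point, and Gbp6 with hk S.E. lies at similar levels at 3 h and 20 h.

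The time course asks how the activated level at 20 h compared with that at 3 h. Of the 10 genes, 9 were lower at 20 h than at 3 h in Ahr+/+ and in Ahr-/- BMMs, and Gbp6 was not. Every activated Ahr-/- library with DMSO carries library identifiers of 1 series in the labels at 3 h and of another at 20 h. In these Ahr-/- libraries time and series thus cannot be told apart. Genes passing the test in this comparison were 59.5% (Ahr+/+) and 56% (Ahr-/-) of all genes, and lower genes were 26.4% and 24.3%. The members' median log2 fold change was -2.68 and -2.78, where that of all genes was 0.08 and 0.09. The libraries of the same 9 genes did not overlap between the times, as in 66.7% and 54.3% of all genes. Marker sums moved between the times as well. In activated Ahr+/+ BMMs with DMSO, neutrophil markers summed to 104 to 238 CPM at 3 h and 22.1 to 38.0 CPM at 20 h, NK cell markers to 8.58 to 12.8 and 0.817 to 1.32 CPM, T cell markers to 4.36 to 9.5 and 1.26 to 1.84 CPM, and macrophage markers to 28800 to 31500 and 17300 to 21200 CPM, none of which overlap. Among Ahr-/- libraries neutrophil markers went from 105 to 109 CPM to 21.3 to 31.4 CPM and NK cell markers from 3.49 to 9.39 CPM to 0.15 to 0.478 CPM, while macrophage markers overlapped (26200 to 29700 and 18700 to 30300 CPM). Their part in the fall was not tested.

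At 20 h Irgm1, Irgm2 and Igtp kept 15.2%, 16.2% and 14.1% of their 3 h level in Ahr+/+ BMMs and 15.3%, 13.8% and 12.9% in Ahr-/- BMMs. The 3 IRGM genes thus kept between 12.9% and 16.2%. Iigp1 and Tgtp1 kept 7.49% and 8.94% in Ahr+/+ and 4.68% and 4.33% in Ahr-/- BMMs. Among the GBP genes the shares ranged widely: Gbp5 kept 9.32%, Gbp7 25.7%, Gbp3 31.9%, Gbp2 39.2% and Gbp6 102% in Ahr+/+ BMMs, and 6.97%, 27.1%, 23.9%, 26.7% and 104% in Ahr-/- BMMs. Gbp6 differed by 0.03 ± 0.284 (95% interval -0.54 to 0.6) and 0.06 ± 0.284 (-0.51 to 0.63) on the log2 scale. Its Ahr+/+ libraries held 80.9, 96.4, 68.6 and 93.8 CPM at 3 h and 91.1, 99.3, 67.5 and 89.7 CPM at 20 h. When the library identifier series was added as a covariate, Tgtp1 in Ahr-/- BMMs lost its call (log2 fold change -3.06, adjusted p = 0.382).

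**Figure D3:**
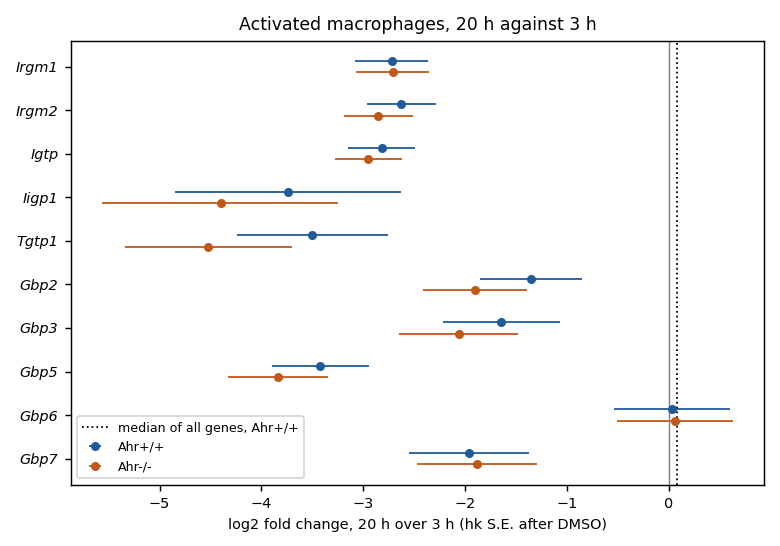
Log2 fold change from 3 h to 20 h of hk S.E. after DMSO for the 10 members, points with 95% intervals, Ahr+/+ in blue and Ahr-/- in orange, and the median of all genes as a dotted line. The intervals of 9 members lie below 0, and those of Gbp6 include 0. In the Ahr-/- libraries time and library identifier series cannot be told apart.

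Without activation, Irgm1 alone passed the test between the times, with a log2 fold change of -0.62 ± 0.170 in Ahr+/+ (adjusted p = 0.00985) and -0.67 ± 0.170 in Ahr-/- BMMs (adjusted p = 0.00445), where 6.07% and 6.98% of all genes passed and 2.77% and 3.46% were lower. In Ahr+/+ BMMs the libraries of Irgm1 and Igtp did not overlap between the times, as in 21.1% of all genes, and in Ahr-/- BMMs 0 of 10 members were without overlap (12.4% of all genes). The calls depended on single libraries: the Ahr+/+ call was lost without any of the 8 libraries other than replicate 3 at 3 h (adjusted p from 0.0114 to 0.0536), and the Ahr-/- call without replicate 3 or 4 at 3 h or replicate 1 or 2 at 20 h (0.0302 to 0.0614).

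Across the 16 groups the members moved much alike, with differences between the subfamilies. As a description over 16 group means of log2 CPM, which share the same libraries, Pearson's r was 0.996 to 0.998 between the IRGM genes, 0.997 between Iigp1 and Tgtp1, and 0.998 between Gbp5 and Gbp7. The lowest r was that of Gbp6 with Irgm2 (0.732), while Gbp6 and Gbp2 had 0.963. The 10 other genes whose pattern was most like the members' mean were Trim30c (r = 0.9984), Enpp4, Fas, Casp4, Usb1, Tgtp2, Cxcl10, Vopp1, Rabgef1 and Hdc (0.9959). Casp4, the sensor of intracellular lipopolysaccharide, went from 19.6 to 294 CPM in Ahr+/+ BMMs at 3 h, and Cxcl10, an interferon-inducible chemokine, from 5.54 to 10146.3 CPM.

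The genotypes were compared within each of 4 conditions, and only activated BMMs at 20 h gave a call. There Tgtp1 and Gbp2 were lower in Ahr-/- than in Ahr+/+ BMMs, 2 of 10 members, while 12.5% of all genes passed the test and 7.39% were lower. Gbp2 differed by -0.95 ± 0.248 (adjusted p = 0.00367), a mean of 440 against 850 CPM, and its libraries, at most 601 CPM in Ahr-/- and at least 667 CPM in Ahr+/+, did not overlap. Tgtp1 differed by -1.73 ± 0.421 (adjusted p = 0.00188), with 0.475, 0.337, 1.66 and 0.920 CPM in Ahr-/- and 3.32, 3.36, 2.17 and 2.51 CPM in Ahr+/+ libraries. The libraries of these 2 genes, 2 of 10 members, did not overlap, a count near the share of all genes (20.4%). Iigp1 differed by -1.35 ± 0.525 without passing (adjusted p = 0.0589), Irgm1, Irgm2 and Igtp by -0.32, -0.3 and -0.37, Gbp3 and Gbp5 by -0.58 and -0.53, Gbp6 by -0.23 and Gbp7 by 0.06. In unactivated BMMs and in activated BMMs at 3 h no member passed (1.21%, 0.702% and 2.83% of all genes did). An unadjusted p below 0.05 was found for 0, 0 and 1 of 10 members (9.99%, 12.5% and 19.1% of all genes), and for 6 of 10 at 20 h of hk S.E. (32%). At 3 h of hk S.E. the 10 differences lay between -0.7 and -0.02, and the libraries of Igtp and Gbp2 did not overlap (12.1% of all genes).

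The calls at 20 h rest on a part of the libraries. Without Ahr-/- replicate 1 or without replicate 2 neither gene passed (Tgtp1 adjusted p = 0.0127 and 0.0138, Gbp2 0.0238 and 0.0364), and without Ahr+/+ replicate 1 or 4 only Tgtp1 did. Every activated Ahr+/+ library at 20 h carries library identifiers of one series in the labels and every Ahr-/- library those of another, so series and genotype cannot be told apart there. With the identifier series as a covariate, estimated from the other groups, Gbp2 was at -0.86 (adjusted p = 0.132) and Tgtp1 at -0.27 (adjusted p = 0.998). Fitted on these 8 libraries alone, Gbp2 had an adjusted p of 0.0499 and Tgtp1 of 0.0219. Dendritic cell markers summed to 0.075 to 0.442 CPM in the Ahr-/- and 0.859 to 1.83 CPM in the Ahr+/+ libraries, and NK cell markers to 0.15 to 0.478 and 0.817 to 1.32 CPM. The B cell markers went the other way, with 0.994 to 1.61 CPM in Ahr-/- and 0.532 to 0.817 CPM in Ahr+/+ libraries. The other sums overlapped, with 0.754 to 1.36 and 1.26 to 1.84 CPM for T cells, 21.3 to 31.4 and 22.1 to 38.0 CPM for neutrophils, 0.412 to 3.0 and 0.299 to 0.66 CPM for fibroblasts and 18700 to 30300 and 17300 to 21200 CPM for macrophages. Their part in the differences was not tested, and in these bulk libraries fewer cells of a type and less RNA per cell cannot be told apart.

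Within Ahr-/- BMMs the libraries numbered 1 and 2 were below those numbered 3 and 4 for many members. This held in 8 of 8 groups for Irgm1, Gbp6 and Gbp7, in 7 for Irgm2 and Iigp1, in 6 for Gbp2 and Gbp3, in 5 for Igtp and Tgtp1 and in 4 for Gbp5. In Ahr+/+ BMMs it held in 0 of 8 groups for 9 members and in 1 for Tgtp1. Of all genes, 1.91% in Ahr-/- and 0.138% in Ahr+/+ BMMs showed this order in 8 of 8 groups, and 18.3% and 2.12% in at least 6. The labels do not say whether a number marks the same mouse in different groups. The activated Ahr-/- libraries of Gbp7 at 20 h held 39.1, 29.9, 86.7 and 80.4 CPM after DMSO, 32.4, 44.4, 87.4 and 75.6 CPM after BaP and 37.4, 29.6, 74.8 and 72.3 CPM after I3C, against 69.9, 60.1, 51.2 and 45.8 CPM in Ahr+/+ BMMs after DMSO.

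**Figure D4:**
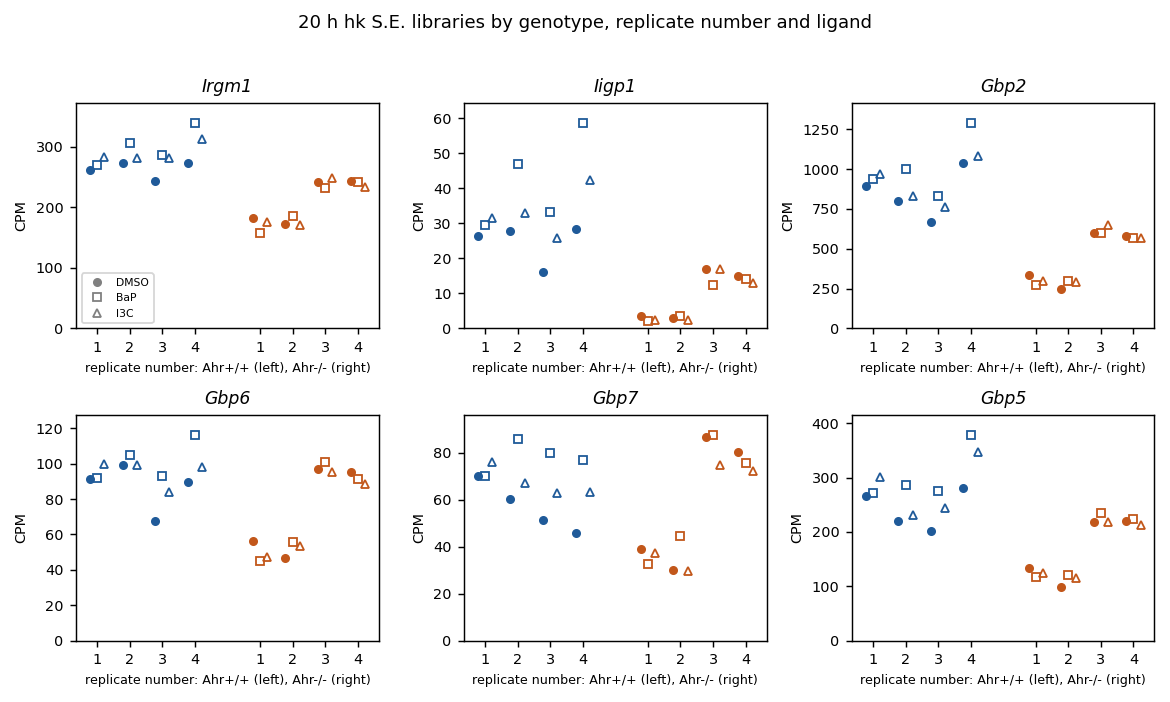
CPM of 6 members in the hk S.E. libraries at 20 h by replicate number, Ahr+/+ on the left (blue) and Ahr-/- on the right (orange), with circles for DMSO, squares for BaP and triangles for I3C. In Ahr-/- BMMs replicates 1 and 2 lie below replicates 3 and 4 with each ligand.

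Whether activation acted differently in the genotypes was tested as an interaction. No member passed at 3 h or at 20 h (0.0138% and 4.41% of all genes did), and unadjusted p was below 0.05 for 1 and 2 of 10 (5.96% and 21.5% of all genes). At 20 h all 10 estimates were negative, from -0.01 for Gbp7 to -2.06 ± 0.937 for Iigp1 (adjusted p = 0.179), with -0.9 ± 0.362 for Gbp2 (adjusted p = 0.114). Their median was -0.47, where that of all genes was 0.01. The outcome depended on whether the replicate number was used: with 4 mice per genotype for 8 groups the groups can share mice, although the labels do not say that a number is a mouse. With the number as a block within genotype, 3 members passed at 20 h, Iigp1 (-2.07, adjusted p = 0.000829), Gbp2 (-0.96, adjusted p = 0.00302) and Irgm1 (-0.41, adjusted p = 0.00802), and 10.4% of all genes did. With a block within genotype and time, chosen after seeing the data, Irgm2 passed as well (-0.43, adjusted p = 0.00724), and 13.8% of all genes.

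The main question of the design is whether BaP or I3C changes the response to hk S.E., and whether this needs AhR. In each of the 8 ligand comparisons 0 of 10 members passed the test, and 0 had an unadjusted p below 0.05. Few genes passed at all: 0.0482% and 0.234% of all genes with BaP in Ahr+/+ BMMs at 3 h and 20 h, 0.131% and 0.509% with I3C, and in Ahr-/- BMMs 0.0275% and 0.0138% with BaP and 0.0206% and 0.206% with I3C. At an unadjusted p below 0.05 these shares were 2.68% and 10.4% (BaP) and 5.12% and 5.72% (I3C) in Ahr+/+ BMMs, and 5.93% and 1.77% (BaP) and 5.92% and 4.62% (I3C) in Ahr-/- BMMs. BaP and I3C were compared with the same DMSO libraries, so their differences are not independent. These counts of 0 hold for the model without the replicate number. With a block within genotype and time, chosen after seeing the data, 1 member passed with BaP in Ahr+/+ BMMs at 20 h, Iigp1 (0.76, adjusted p = 0.000305), and 4.26% of all genes did, whereas with a block within genotype Iigp1 had an adjusted p of 0.016 and 1.86% of all genes passed.

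At 20 h in Ahr+/+ BMMs all 10 estimates were above 0 with either ligand. With BaP they ran from 0.18 for Igtp to 0.77 for Iigp1, with a median of 0.28, and with I3C from 0.1 for Gbp2 to 0.49 for Tgtp1, with a median of 0.18, while the median of all genes was 0 in both. Iigp1 held 29.6, 47.0, 33.2 and 58.6 CPM after BaP, 31.6, 32.8, 25.9 and 42.4 CPM after I3C and 26.5, 27.7, 16.2 and 28.4 CPM after DMSO. Its BaP libraries all lay above its DMSO libraries, whereas 1 of its I3C libraries did not. The log2 fold change with BaP was 0.77 ± 0.506 with a 95% interval of -0.24 to 1.79 (adjusted p = 0.646), and this interval includes both a small decrease and an increase larger than the estimate. This SE rests on the spread over the groups of both genotypes. With DESeq2 on Ahr+/+ libraries alone and a replicate block, chosen after seeing the data, Iigp1 was at 0.79 ± 0.187 and passed (adjusted p = 0.000755). In that fit Gbp7 and Irgm2 passed as well (adjusted p = 0.00917 and 0.0063), and the remaining members did not. The outcome for these members thus depended on the model. Gbp7, linked to the oxidative defense of phagosomes, held 70.3, 85.8, 79.8 and 76.9 CPM after BaP and did not overlap with DMSO either (0.46 ± 0.285, adjusted p = 0.616). These 2 of 10 members compare with 9.05% of all genes that did not overlap. With I3C, Irgm1 (283, 282, 281 and 312 against 262, 273, 244 and 273 CPM) and Irgm2 (145, 145, 143 and 148 against 125, 139, 120 and 118 CPM) did not overlap, where 5.58% of all genes did not. Their log2 fold changes were 0.14 ± 0.168 and 0.21 ± 0.158.

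At 3 h in Ahr+/+ BMMs the estimates lay between -0.17 and 0.04 with BaP and between -0.02 and 0.15 with I3C. The intervals were narrow for the IRGM genes, -0.4 to 0.27 for Irgm1 with BaP, and wide for Iigp1, -1.11 to 0.87. In Ahr-/- BMMs the estimates lay between -0.4 and -0.11 with BaP at 3 h, between -0.25 and 0.05 with BaP at 20 h, between -0.2 and 0.1 with I3C at 3 h and between -0.15 and 0.25 with I3C at 20 h. At 20 h Iigp1 in Ahr-/- BMMs held 2.16, 3.40, 12.5 and 14.1 CPM after BaP against 3.64, 2.89, 16.9 and 14.9 CPM after DMSO, groups that overlap.

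**Figure D5:**
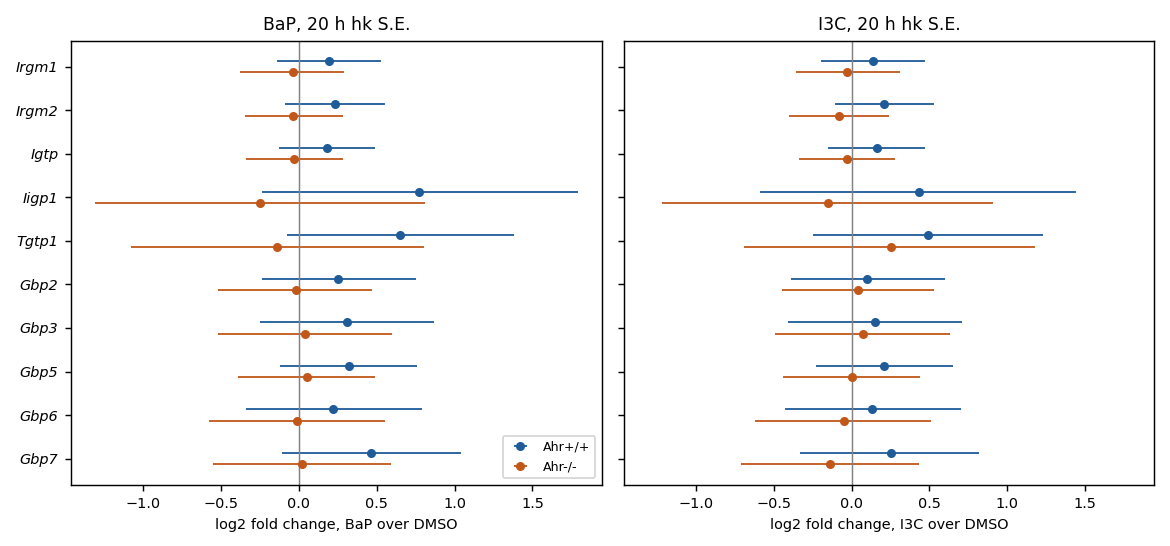
Log2 fold change of the 10 members with BaP (left) and I3C (right) over DMSO at 20 h of hk S.E., points with 95% intervals, Ahr+/+ in blue and Ahr-/- in orange. All intervals, from the model without the replicate number, include 0, and in Ahr+/+ BMMs all 10 points lie above 0.

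The difference between the genotypes in the ligand effect was not past the threshold for any member, with BaP at 20 h between -1.02 and -0.21 (lowest unadjusted p = 0.17, adjusted p = 0.984) and with I3C at 20 h between -0.58 and -0.06. With a replicate block within genotype and time, Iigp1 passed for BaP at 20 h (-1.02, adjusted p = 0.00787, with 0.66% of all genes), and with a block within genotype it had an adjusted p of 0.129. Without a block, at 20 h 0% of all genes passed this test with either ligand, and at 3 h 0.0138% with BaP and 0% with I3C. An unadjusted p below 0.05 was found for 0 of 10 members in each (2.56% and 4.67% of all genes with BaP at 3 h and 20 h, and 1.66% and 1.97% with I3C). Between the times the ligand effect in Ahr+/+ BMMs differed by 0.21 to 0.89 with BaP and by 0.08 to 0.43 with I3C, with no member past the threshold (0% and 0.0275% of all genes passed, 5.05% and 2.35% at an unadjusted p below 0.05, where 0 members were). BaP and I3C, which are different structures, were given at 1 µM and 10 µM, so the values stand side by side and are no comparison at matched dose. At 20 h in Ahr+/+ BMMs BaP libraries differed from I3C libraries by 0.02 (Irgm2 and Igtp) to 0.34 (Iigp1, 95% interval -0.67 to 1.35), and at 3 h by -0.15 to -0.02. Of the members 0 passed (0.11% of all genes at 3 h and 0.282% at 20 h), and 0 had an unadjusted p below 0.05 (4.16% and 5.71%).

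Genes of the interferon pathway were followed as lists in the same comparisons, to be read against the shares of all genes. With hk S.E. in Ahr+/+ BMMs 24.2% of all genes were higher and 32.3% lower at 3 h and 29.9% were higher at 20 h, and from 3 h to 20 h 33% were higher and 26.4% lower. Of the 17 other IRG and GBP genes that could be tested, of 19, 16 rose and 1 fell with 3 h of hk S.E. in Ahr+/+ BMMs, with a median log2 fold change of 5.05, and at 20 h 15 rose. Of 7 inhibitors of interferon signaling 5 rose at 3 h. All 10 tested genes downstream of GBP proteins, such as inflammasome genes, rose at 3 h (median 3.3). From 3 h to 20 h of hk S.E. in Ahr+/+ BMMs, 11 of the 17 other IRG and GBP genes fell and 2 rose (median -1.6), and 8 of 10 genes downstream of GBP proteins fell and 1 rose. The prenylation enzymes that attach a lipid to some GBP proteins showed 1 higher and 2 lower of 6 with 3 h of hk S.E., and the 12 genes of autophagy conjugation, which guides IRG proteins to their targets, 5 higher and 4 lower. The prenylation counts and the lower autophagy count are near the shares of all genes.

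Of the interferons, Ifnb1, the gene of interferon-β, rose with hk S.E. in Ahr+/+ BMMs at 3 h (log2 fold change 10.23 ± 0.751) and fell from 3 h to 20 h (-4.17 ± 0.409). Its activated libraries held 13.8, 22.3, 13.2 and 17.8 CPM at 3 h and 0.494, 0.598, 1.48 and 1.02 CPM at 20 h in Ahr+/+ BMMs. In Ahr-/- BMMs they held 6.66, 3.8, 17.6 and 16.7 CPM at 3 h and 0.095, 0.112, 0.368 and 0.110 CPM at 20 h. Replicates 1 and 2 were again the lower ones at 3 h. Ifnb1 was lower in Ahr-/- than in Ahr+/+ BMMs at 20 h (-2.51 ± 0.593, adjusted p = 0.00134, and 0.816 with the identifier series as a covariate). Ifng had at most 6 counts in any DMSO library, too few to be tested. Ifngr1, the ligand-binding chain of the interferon-γ receptor, fell with hk S.E. at 3 h (-0.79 ± 0.0705) and was higher in Ahr-/- BMMs at 3 h of activation (0.31 ± 0.0704, adjusted p = 0.00339, and 0.0174 with that covariate). Ifnar1, Ifnar2 and Ifngr2 rose by 1.35, 1.17 and 0.64 at 3 h in Ahr+/+ BMMs.

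Between the genotypes, activated at 20 h, 11 list genes passed the test beside Ifnb1, where 12.5% of all genes passed and 7.39% were lower. Among them were 3 lower of 12 autophagy genes, and 1 lower and 2 higher of 10 genes downstream of GBP proteins. In contrast, 0 of the 17 other IRG and GBP genes passed, and no prenylation enzyme or inhibitor of interferon signaling did. Lower in Ahr-/- BMMs were Jak1 (-0.38), Stat2 (-0.83), Irf1 (-0.58), Batf2 (-0.75), Ciita (-1.3), Atg12 (-0.44), Map1lc3a (-0.51), Sqstm1 (-0.73) and Gsdmd (-0.5), and higher were Nlrp3 (0.32) and Il1b (1.41). With the identifier series as a covariate none of these passed (adjusted p from 0.0123 for Jak1 to 0.367 for Sqstm1), and on the 8 libraries alone only Sqstm1, an autophagy receptor, did (adjusted p = 0.00994). At 3 h of activation, where 2.83% of all genes passed, Irgq was higher (0.43) and Irf8 lower (-0.73) in Ahr-/- BMMs. Their adjusted p was 0.0277 and 0.0131 when the identifier series was a covariate. The interaction of activation and genotype at 20 h was negative for Irf1 (-0.66 ± 0.163, adjusted p = 0.0049), Jak1 (-0.41), Irf2 (-0.46) and Sqstm1 (-0.93 ± 0.206, adjusted p = 0.00168), with adjusted p of 0.0104 to 0.0245 when the identifier series was a covariate. These are the genes called among all tested list genes, in a test that 4.41% of all genes passed. Whether list genes passed more often than all genes was not tested, here or between the genotypes, so these calls are no result about the pathway. No list gene passed in a comparison of a ligand with DMSO.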

How the data were processed

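RNA of 64 BMM libraries (16 groups of 4) was sequenced from a strand-specific poly(A) protocol. The authors aligned reads to mm10 with HISAT2 (2.1.0) and counted them per gene with HTSeq (0.9.1), in the strict intersection mode and by strand. They deposited raw counts per gene and library, and a table of log2-scale values after a variance-stabilizing transformation (VST). The 5 entries of the count files that name no gene were left out.

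Groups were taken from the labels. Counts were scaled by TMM, and 14537 genes passed filterByExpr (minimum count 10). One quasi-likelihood model of edgeR (4.0.16, R 4.3.3) with 16 group means gave all log2 fold changes. Its p-values were adjusted over all tested genes (Benjamini-Hochberg, threshold 0.01), and 95% intervals used its SE. CPM are per library, without pseudocount. The deposited counts set the precision, and ratios of raw counts carry exact 95% intervals for counting error only. The labels do not say whether a replicate number marks the same mouse in different groups, so p-values measure the spread between libraries of a group. Each gene had 1 estimate of this spread, shared by all 16 groups of both genotypes. Alternatives used DESeq2 (1.42.0), limma (3.58.1) on the deposited log2 VST values, other scaling and filters, a replicate block, the library identifier series and leaving out libraries. The method was tested on simulated data, drawn without any effect of the replicate number, so this test cannot decide between models with and without a block.

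All 10 members were tested in every comparison, with full values for Irgm1, Iigp1 and Gbp2 across activation. In several comparisons the others are given only as counts or ranges. Members, gene lists and markers were chosen with earlier results of these data known. The counts of a list of interferon signaling genes are not reported here.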

Additional observations from a re-analysis of the deposited data

Results flagged for a closer look

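In 6 of 160 groups of 4 libraries, 1 library of a member stood apart from the other 3 beyond the 95% critical value of Dixon's test, which chance alone does in about 1 group of 20. In Ahr+/+ BMMs with I3C at 20 h, Irgm1 was highest in replicate 4 with 312 CPM, against 281, 282 and 283 CPM. In the same group Gbp6 was lowest in replicate 3 with 83.8 CPM, against 98.0, 99.2 and 100 CPM. Irgm2 was highest in replicate 2 of activated Ahr+/+ BMMs with DMSO at 3 h, with 862 CPM against 742, 744 and 758 CPM. Iigp1 was lowest in replicate 3 of activated Ahr+/+ BMMs with DMSO at 20 h, with 16.2 CPM against 26.5, 27.7 and 28.4 CPM. Gbp5 was highest in replicate 4 of Ahr+/+ BMMs with BaP at 20 h, with 378 CPM against 272, 275 and 286 CPM. Tgtp1 was seen in replicate 4 of unactivated Ahr-/- BMMs at 20 h with 0.152 CPM, from 8 counts, and had 0 counts in the other 3.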

How the results depend on the processing

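Of 6096 comparisons of a member's main result with an alternative, 6046 stayed on the same side of the threshold, and 0 reversed, while 380 changed sign with unadjusted p of 0.05 or more in both. The 10 members rose with hk S.E. in all 4 comparisons under each alternative and each left-out library. In unactivated Ahr+/+ BMMs between the times, 0 members passed without the filter, with limma and with the identifier covariate, 2 with DESeq2 on the groups alone, and 0 to 1 with a library left out. In unactivated Ahr-/- BMMs 0 passed with limma, the identifier covariate, and edgeR or DESeq2 on the groups alone, 2 passed at adjusted p below 0.05, and 0 to 2 with a library left out. Between genotypes at 20 h of hk S.E., 0 passed with the identifier covariate and with edgeR on the groups alone, and 0 to 2 with a library left out. The share of all genes that passed under each alternative is not given here. These counts therefore only show how the calls of the members change with the model. The cause of these differences was not tested.

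Same-numbered libraries deviated together with r over 0.1 in 24 of 24 pairs in Ahr-/- BMMs at 20 h, 21 of 24 at 3 h, and 21 and 11 of 24 in Ahr+/+ BMMs at 20 h and 3 h. Their median r was 0.524, 0.302, 0.207 and 0.0861, against -0.403, -0.165, -0.0602 and -0.0289 for different numbers, so same-numbered libraries deviated together more than others. The labels do not say what a number marks, and the model without a block was kept as the main one. With a replicate block within genotype, 3 members passed for the interaction of activation and genotype at 20 h (Iigp1 -2.07, Gbp2 -0.96, Irgm1 -0.41) and 3 between the times in unactivated Ahr-/- BMMs. With BaP in Ahr+/+ BMMs at 20 h Iigp1 then had an adjusted p of 0.016. Alternatives chosen after seeing the data were a replicate block within genotype and time and DESeq2 per genotype with a replicate block. Under the first, 4 members passed for the interaction at 20 h, 1 with BaP in Ahr+/+ BMMs at 20 h (Iigp1 0.76, adjusted p = 0.000305) and 1 for BaP by genotype at 20 h (Iigp1 -1.02, adjusted p = 0.00787). Under the second, 3 passed with BaP in Ahr+/+ BMMs at 20 h (Iigp1, Gbp7 and Irgm2), and 4 and 2 between the times in unactivated Ahr+/+ and Ahr-/- BMMs. For this fit, and for the times with a block within genotype, the shares of all genes are not given here. These counts show how the calls depend on the model and are no result about the members. Depth limits Tgtp1 most, with at most 1 count in each unactivated library except 2 with 8 and 31 counts.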

Other observations

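Libraries with the same replicate number were also compared as pairs, as a description without a test, since the labels do not say that a number is a mouse. The 10 members moved much alike and come from the same 4 library pairs, so the 40 member pairs are not independent. With BaP in Ahr+/+ BMMs at 20 h, 37 of 40 member pairs were higher than DMSO, and 7 of 10 members were higher in 4 of 4 pairs, as were 13.7% of all genes. With I3C these were 39 of 40 pairs and 9 of 10 members, against 11.8% of all genes, from the same DMSO libraries. With BaP in Ahr-/- BMMs at 20 h 18 of 40 pairs were higher and no member was higher or lower in 4 of 4, and with I3C 12 of 40 pairs were higher and 4 members were lower in 4 of 4 (14.9% of all genes). With BaP in Ahr-/- BMMs at 3 h 0 of 40 pairs were higher and 10 of 10 members were lower in 4 of 4, where 16.3% of all genes were lower. With BaP in Ahr+/+ BMMs at 3 h 11 of 40 pairs were higher, and with I3C 27 of 40.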
